A study of Mus musculus with 24 samples.

Results

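The genes described here encode the subunits that set the 3 forms of the mammalian SWI/SNF complex apart. They were chosen by name, as the subunits known to be specific to 1 form: Arid1a, Arid1b, Dpf1, Dpf2 and Dpf3 for BAF (5 genes), Arid2, Pbrm1, Brd7 and Phf10 for PBAF (4 genes), and Brd9 for ncBAF (1 gene). All 10 were found among the 25229 gene symbols of the count table. Poly(A)-selected RNA was sequenced from ID8 P53 KO cells, a mouse ovarian cancer line that lacks p53, in 24 libraries. There were 6 libraries for each of 4 treatments: DMSO, cisplatin at 750 nM, AU15330 (AU-15330 below) at 2.5 µM, and both drugs together (the combination), each for 6 days. This cisplatin dose is that of the labels, and the study's methods give a different one for these cells. The study looked for ways to increase the removal of senescent cells by natural killer cells, and examined SMARCA4 inhibition in this ovarian cancer model. Cisplatin is a DNA-crosslinking drug that induces senescence in these cells. All libraries come from 1 line, p53 is missing in every group, controls included, and the labels do not say whether replicates were separate cultures, so p-values measure only the spread between these libraries.

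SWI/SNF complexes use the energy of ATP to slide or evict nucleosomes, and share an ATPase, SMARCA4 or SMARCA2, and a core. ARID1A or its paralogue ARID1B occupies BAF together with a DPF protein, and is known for holding the complex together and for its frequent loss in ovarian cancers of the clear cell and endometrioid types. ARID2, PBRM1, BRD7 and PHF10 define PBAF, in which PHF10 takes the place of the DPF protein. BRD9, with BICRA or BICRAL, defines ncBAF, which lacks an ARID subunit. AU-15330 is a PROTAC, a molecule that brings a target protein to a ubiquitin ligase for destruction. Its targets are the SMARCA4 and SMARCA2 proteins, and its bromodomain ligand is known to take PBRM1 protein as well. Since it acts on protein, the mRNA levels below do not check whether it worked.

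Between 17592588 and 25260009 reads were counted per library, and 3 reads corresponded to 0.120 to 0.186 CPM, the unit used below for read counts scaled to library size by the TMM method. Of the 25229 symbols, 12941 passed the filter on low counts, including 9 of the 10 subunit genes: 4 of 5 for BAF, 4 of 4 for PBAF and 1 of 1 for ncBAF. Dpf3 did not pass. The ovarian surface markers Krt8, Krt18, Wt1 and Msln were expressed in all 24 libraries, at no less than 99.9 CPM, although the mean of Krt18 was 646 CPM in DMSO and 122 CPM with AU-15330, and that of Msln 524 and 117 CPM. Krt19 lay at 1398 CPM or more in DMSO but at 4.15 to 14.4 CPM with AU-15330, and Krt7 reached at most 5.16 CPM in any group. Some markers of other cells were at or near 0: Ptprc of leukocytes had at most 5 reads in a library, Cdh5 of endothelium at most 3 and Rbfox3 of neurons at most 5. The other markers examined for the same cell types were detected and moved with the treatments. Cd68 of leukocytes had a mean of 11.8 CPM in DMSO, 9.25 with cisplatin, 34.8 with AU-15330 and 33.7 with the combination. Pecam1 of endothelium had 3.60, 10.2, 0.458 and 0.748 CPM, and Tubb3 of neurons 0.655, 4.55, 0.238 and 0.826 CPM. The part that cells behind these markers play in the results below was not tested. DMSO replicate 1 stood apart from the other DMSO libraries for Phf10 and Dpf2, and the log2 differences of these genes that use DMSO are given with and without it. Their read ratio, ranks and levels per kilobase include it.

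The largest differences among the 9 tested genes belonged to Arid1a, which was about 2 times as high in both groups that received AU-15330, and to Phf10, which fell to 0.297 times its DMSO level with AU-15330. The stretches of genome just upstream of both genes are shown because these 2 genes moved in opposite directions under the same drug. Each is given 5′ to 3′ on the strand of the gene (minus in both cases), from RefSeq on GRCm38.p6, with every GC box in capitals, that is GGGCGG on either strand. The Arid1a window spans chr4:133756770-133757019, and the Phf10 window chr17:14961274-14961510.
Arid1a: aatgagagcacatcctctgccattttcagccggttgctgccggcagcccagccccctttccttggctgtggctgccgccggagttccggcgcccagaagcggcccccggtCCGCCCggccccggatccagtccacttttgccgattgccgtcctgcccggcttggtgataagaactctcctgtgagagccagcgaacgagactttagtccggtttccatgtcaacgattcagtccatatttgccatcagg
Phf10: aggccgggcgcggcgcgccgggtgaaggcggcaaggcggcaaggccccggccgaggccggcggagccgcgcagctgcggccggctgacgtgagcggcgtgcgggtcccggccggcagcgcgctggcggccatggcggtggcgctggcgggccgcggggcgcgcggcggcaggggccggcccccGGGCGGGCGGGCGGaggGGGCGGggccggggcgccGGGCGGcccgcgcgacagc
The Arid1a window (250 bases) had 61.2% G and C, 18 CpG dinucleotides and 1 GC box. A second RefSeq window of Arid1a, at a start inside the gene (chr4:133753986-133754235, not printed), had 81.6% G and C, 33 CpG dinucleotides and 7 GC boxes, so the count for this gene depends on the start chosen. The Phf10 window (237 bases) had 88.2% G and C, 47 CpG dinucleotides and 5 GC boxes, some of them overlapping. Over 32851 RefSeq windows of 250 bases the median was 52.4% G and C, and 32.7% held a GC box. Neither window held the AP-1 letters TGANTCA (6.75% of all windows), the CRE letters TGACGTCA (1.55%), the E-box CACGTG (6.02%) or CCAAT (33.8%), with both strands searched. Promoter windows were matched for 9 of the 10 genes (all but Arid2).

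Arid1a lies at chr4:133679008-133756769 (mm10). In DMSO its lowest, median and highest values were 168, 208 and 265 CPM, and with cisplatin they were 149, 195 and 229 CPM. With AU-15330 they were 388, 422 and 494 CPM, and with the combination 293, 387 and 440 CPM. Every library that received AU-15330 therefore lay above every library that did not. Arid1a was higher with AU-15330 than with DMSO by 1.01 on the log2 scale (SE 0.120, adjusted p = 3.2e-08, edgeR quasi-likelihood test with Benjamini-Hochberg adjustment over 12941 genes, as for every adjusted p below unless another is named). It was also 1.01 higher with the combination than with cisplatin (SE 0.120, adjusted p = 4.2e-08). Cisplatin left no difference that passed the test, whether given alone (log2 -0.18, 95% interval -0.42 to 0.07, adjusted p = 0.223) or on top of AU-15330 (log2 -0.18, interval -0.43 to 0.06, adjusted p = 0.233). The difference between the effects of AU-15330 with and without cisplatin was -0.0039 (interval -0.35 to 0.34).

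Arid1b, the paralogue that can take the place of ARID1A in BAF, rose less and moved with both drugs. It ranged from 106 to 161 CPM in DMSO (median 140), from 129 to 183 CPM with cisplatin (median 170), from 197 to 249 CPM with AU-15330 (median 221) and from 167 to 216 CPM with the combination (median 206). The AU-15330 libraries all exceeded the DMSO libraries, while the DMSO and cisplatin ranges overlapped. The log2 difference was 0.71 for AU-15330 against DMSO (SE 0.108, adjusted p = 1.9e-06), 0.31 for the combination against cisplatin (adjusted p = 0.0138) and 0.25 for cisplatin against DMSO (adjusted p = 0.0495). The cisplatin call was lost without DMSO replicate 1 (adjusted p = 0.0740), without replicate 1 of all groups (adjusted p = 0.0720) and with no filter on low counts (adjusted p = 0.0704). The effect of AU-15330 was smaller in the presence of cisplatin, by -0.40 on the log2 scale (SE 0.151, adjusted p = 0.0433).

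**Figure D1:**
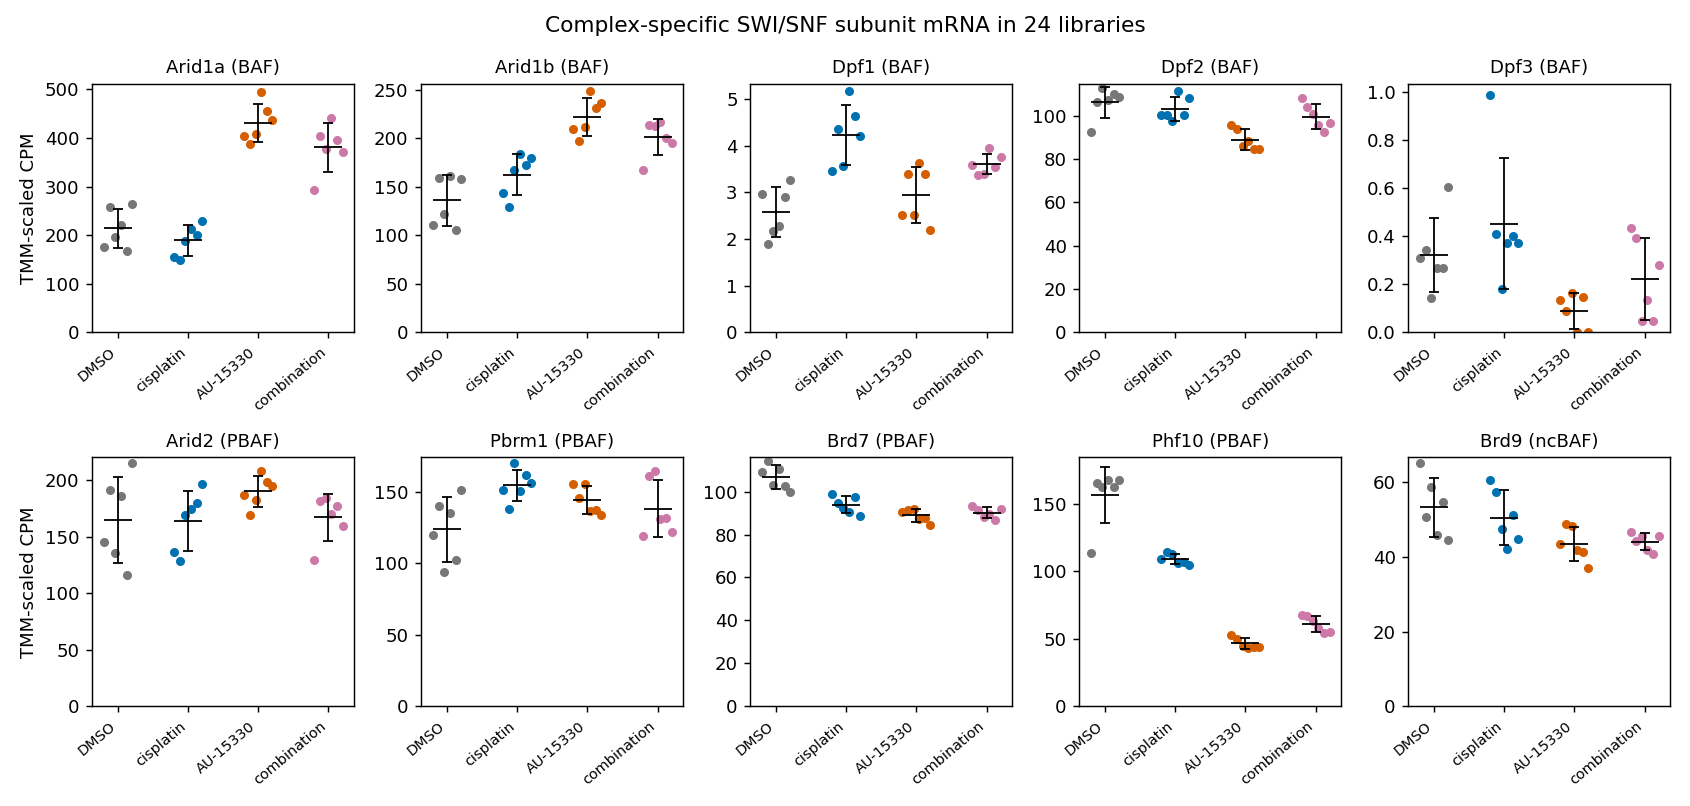
TMM-scaled CPM (vertical axis, from 0) of the 10 subunit genes in the 6 libraries of each treatment (points), with the mean and SD of each group (bars). The lowest Arid1a value with AU-15330 or the combination was 293 CPM, above the highest without it (265 CPM), and the highest Phf10 value with AU-15330 or the combination was 67.4 CPM, below the lowest without it (105 CPM).

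The read ratio of Arid1a to Arid1b within each library, in which sequencing depth cancels, separated cisplatin from the other groups. Its median was 1.60 in DMSO (1.37 to 1.67), 1.16 with cisplatin (1.08 to 1.28), 1.95 with AU-15330 (1.85 to 1.99) and 1.90 with the combination (1.75 to 2.03). The cisplatin range overlapped no other group, the DMSO range overlapped none either, and the 2 groups with AU-15330 overlapped each other. Set against the PBAF gene Arid2, Arid1a had a median ratio of 1.29 in DMSO, 1.15 with cisplatin, 2.27 with AU-15330 and 2.25 with the combination. These ratios are given as descriptions, with no test.

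The DPF genes encode the double PHD finger subunits of BAF, which read modified histone tails. Dpf2, the form used in most tissues, had medians of 108 CPM in DMSO, 100 CPM with cisplatin, 87.1 CPM with AU-15330 and 98.6 CPM with the combination. Its group ranges overlapped in each of the 4 tested comparisons over the 24 libraries. The cisplatin libraries (at least 97.4 CPM) all lay above the AU-15330 libraries (at most 95.8 CPM), a pair that was not tested. It was lower with AU-15330 than with DMSO by a log2 difference of -0.26 (SE 0.0574, adjusted p = 0.000271) and higher with the combination than with AU-15330 by 0.16 (SE 0.0574, adjusted p = 0.0235). The latter call was lost without replicate 1 of all groups (log2 0.12, adjusted p = 0.0634) and with no filter (adjusted p = 0.160), and the former with library totals in place of TMM (log2 -0.13, adjusted p = 0.0561). DMSO replicate 1 was the lowest DMSO library at 92.6 CPM, and the lowest of the other 5 was at 107 CPM. Without it the DMSO and AU-15330 ranges did not overlap, and the differences were -0.29 for AU-15330 (adjusted p = 4.3e-05) and -0.06 for cisplatin (adjusted p = 0.354).

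Dpf1, a form known mainly from neurons, was expressed at a low level, with 39 to 125 reads per library. It ranged from 1.90 to 3.25 CPM in DMSO and from 3.45 to 5.16 CPM with cisplatin, so the 2 groups did not overlap. With AU-15330 it ranged from 2.19 to 3.62 CPM and with the combination from 3.38 to 3.95 CPM. The increase with cisplatin was 0.72 on the log2 scale (SE 0.151, adjusted p = 0.000293), and the other comparisons did not pass the test. Tubb3 was also highest with cisplatin (3.28 to 6.05 CPM), while Rbfox3 had at most 1 read in any cisplatin library. Dpf3 had 3 to 13 reads in the DMSO libraries, 4 to 22 with cisplatin, 0 to 4 with AU-15330 and 1 to 10 with the combination. Fitted with no filter on low counts, Dpf3 was lower with AU-15330 than with DMSO (log2 -1.78, adjusted p = 0.0141), and passed in no other comparison. The AU-15330 libraries held 12 Dpf3 reads in all, against 39 in DMSO.

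Phf10, the PHD finger subunit of PBAF, lies at chr17:14945009-14961273 (mm10). In DMSO its lowest, median and highest values were 114, 164 and 168 CPM. Replicate 1 was the low library, and the other 5 lay at 162 CPM or more. The values were 105, 108 and 115 CPM with cisplatin, 43.3, 44.5 and 53.2 CPM with AU-15330, and 54.0, 60.6 and 67.4 CPM with the combination. The 4 groups thus stood in the order DMSO, cisplatin, combination, AU-15330, and only DMSO replicate 1 crossed into the range of another group.

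Phf10 was lower with AU-15330 than with DMSO by a log2 difference of -1.75 (SE 0.0845, adjusted p = 5.6e-16), and 10.1% of tested genes had a more negative difference. Without DMSO replicate 1 the value was -1.82, that for cisplatin against DMSO -0.58, and the DMSO and cisplatin ranges did not overlap. The difference was -0.52 for cisplatin against DMSO (SE 0.0818, adjusted p = 7.5e-06) and -0.84 for the combination against cisplatin (SE 0.0826, adjusted p = 1.2e-09). Adding cisplatin to AU-15330 went with a higher level, by 0.38 (SE 0.0830, adjusted p = 0.000579), seen in all 6 libraries against all 6. Phf10 was lower with each drug alone, but the log2 differences were not additive: the effect of AU-15330 was 0.91 less negative on the log2 scale in the presence of cisplatin (SE 0.116, adjusted p = 1.5e-06), or 0.96 without DMSO replicate 1. The exons of Phf10 share 470 bases, 9.56% of their length, with 1600012H06Rik on the opposite strand, and the strand setting of the read counting is not given in the sources used here. That neighbour was also lower with AU-15330 (log2 -0.90 against DMSO, adjusted p = 3.2e-12), but its difference with cisplatin did not pass the test (log2 -0.12, adjusted p = 0.135), and its effect of AU-15330 with minus without cisplatin was -0.02 (adjusted p = 0.919).

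**Figure D2:**
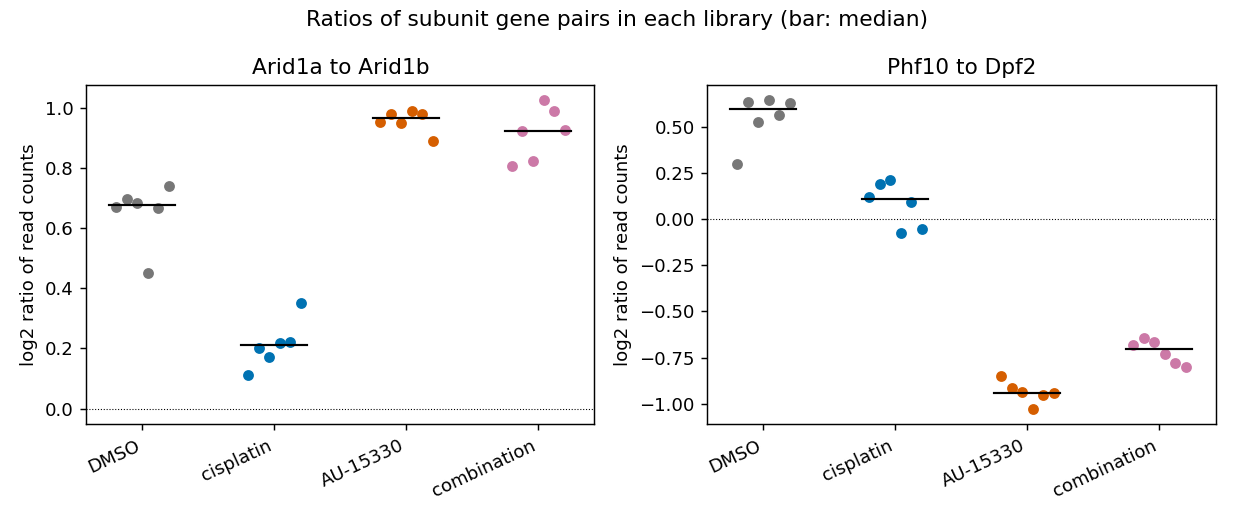
log2 ratio of read counts (vertical axis) of Arid1a to Arid1b and of Phf10 to Dpf2 in the 6 libraries of each treatment (points), with the group median (bar). The Arid1a to Arid1b ratio was lowest with cisplatin (median 0.21), and the Phf10 to Dpf2 ratio was above 0 in every DMSO library and below 0 in every library with AU-15330 or the combination.

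PHF10 and the DPF proteins hold corresponding places in PBAF and BAF, so the Phf10 to Dpf2 read ratio was also followed. It was 1.23 to 1.56 in DMSO, 0.951 to 1.16 with cisplatin, 0.491 to 0.555 with AU-15330 and 0.573 to 0.639 with the combination. No pair of groups overlapped.

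The other PBAF genes differed far less. Brd7, a bromodomain subunit, was tightly measured: it ranged from 100.01 to 114 CPM in DMSO, 88.7 to 98.7 CPM with cisplatin, 84.2 to 91.9 CPM with AU-15330 and 86.7 to 93.4 CPM with the combination. In these TMM-scaled values all DMSO libraries lay above all others, with a narrow gap to cisplatin. The log2 difference was -0.19 with cisplatin (SE 0.0478, adjusted p = 0.00210) and -0.26 with AU-15330 (SE 0.0478, adjusted p = 2.3e-05). Neither drug gave a further difference on top of the other that passed the test (combination against cisplatin -0.06, interval -0.15 to 0.04; against AU-15330 0.02, interval -0.08 to 0.12). The effect of AU-15330 was accordingly 0.21 less negative in the presence of cisplatin (SE 0.0676, adjusted p = 0.0195), a call that was lost without DMSO replicate 1 (0.18, adjusted p = 0.0529), with no filter (adjusted p = 0.0985) and with library totals (adjusted p = 0.125). With library totals the cisplatin difference was -0.11 and did not pass (adjusted p = 0.0697). The AU-15330 difference was then -0.13 and still passed (adjusted p = 0.0195).

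Pbrm1 encodes the subunit of PBAF with an array of bromodomains. It ranged from 93.7 to 151 CPM in DMSO (median 128), 138 to 170 CPM with cisplatin (median 154), 134 to 156 CPM with AU-15330 (median 141) and 119 to 165 CPM with the combination (median 132). The ranges of DMSO and of each treatment overlapped. Pbrm1 was 0.32 higher with cisplatin (SE 0.101, adjusted p = 0.00952), while the 0.22 with AU-15330 did not pass (interval 0.01 to 0.43, adjusted p = 0.0533). It passed under 5 of 9 alternative fits, among them DESeq2 (adjusted p = 0.0476) and library totals (0.35, adjusted p = 0.00296). The effect of AU-15330 was lower by -0.38 in the presence of cisplatin (SE 0.143, adjusted p = 0.0405), a call lost without replicate 1 of all groups (adjusted p = 0.0807). Arid2, which takes the place of ARID1A in PBAF, passed the test in no comparison. Its medians were 166, 172, 191 and 174 CPM with DMSO, cisplatin, AU-15330 and the combination, and all ranges overlapped. The interval for AU-15330 against DMSO ran from -0.05 to 0.46, so neither an increase within it nor no difference can be set aside.

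Brd9, the bromodomain subunit of ncBAF, ranged from 44.4 to 65.2 CPM in DMSO, 42.0 to 60.7 CPM with cisplatin, 36.9 to 48.8 CPM with AU-15330 and 40.7 to 46.8 CPM with the combination. The ranges overlapped throughout. It was lower with AU-15330 by a log2 difference of -0.29 (SE 0.0962, adjusted p = 0.00822), though not with library totals (-0.16, adjusted p = 0.143). The difference of -0.20 between the combination and cisplatin did not pass (interval -0.39 to 0.00072, adjusted p = 0.0722). It passed with a replicate block (adjusted p = 0.0294), with DESeq2 (adjusted p = 0.0393) and without DMSO replicate 1 (adjusted p = 0.0464), and in 5 of 9 alternative fits in all. With cisplatin alone the difference was -0.08 (interval -0.27 to 0.12). The 2 other ncBAF-specific genes moved in opposite directions with AU-15330. Bicra was lower by -0.65 (SE 0.181, adjusted p = 0.00225) and Bicral higher by 1.30 (SE 0.166, adjusted p = 1.1e-07).

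**Figure D3:**
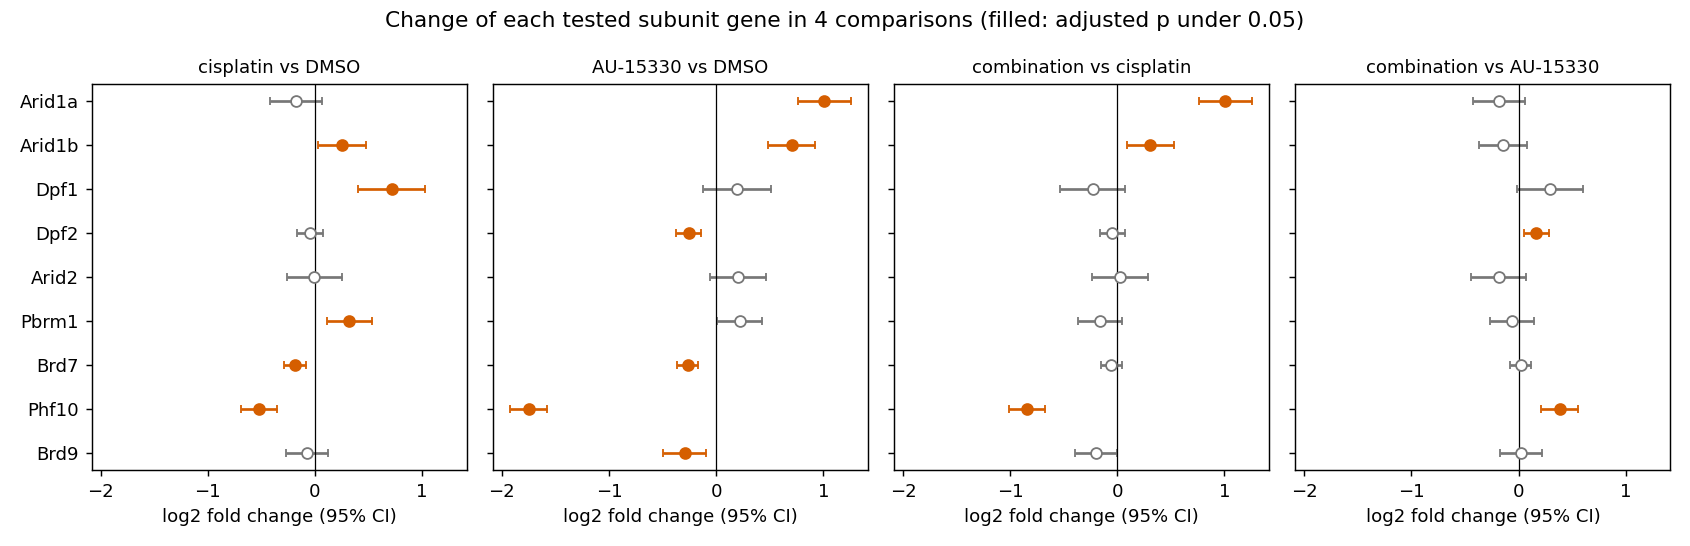
log2 fold change (horizontal axis) with its 95% interval for the 9 tested subunit genes in 4 comparisons; filled points have an adjusted p under 0.05. Arid1a and Phf10 lie farthest from 0 in the comparisons that add AU-15330, at 1.01 and -1.75 against DMSO.

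With AU-15330 against DMSO, 6 of the 9 tested genes passed the test, where 73.4% of all tested genes did: Arid1a and Arid1b rose (36.2% of all genes rose), and Dpf2, Brd7, Phf10 and Brd9 fell (37.2% fell). Both that rose are BAF genes, and of the 4 that fell 1 is a BAF, 2 are PBAF and 1 is an ncBAF gene. The median log2 difference of all 9 was 0.19, the value of Dpf1, which did not pass, against -0.0030 for all tested genes. All AU-15330 libraries lay above all DMSO libraries for 2 of the 9 genes (24.5% of all tested genes) and below them for another 2 (25.4%). Without DMSO replicate 1 the latter count was 3 (27.6%), with Dpf2 added to Brd7 and Phf10. With library totals in place of TMM the balance turned to 4 higher and 2 lower, as Arid2 (0.33, adjusted p = 0.0163) and Pbrm1 passed and Dpf2 and Brd9 did not. Of all genes 74.1% then passed, and 58.6% of those calls were higher, against 49.3% with TMM. With cisplatin against DMSO 5 of 9 passed, where 51.7% of all genes did: Arid1b, Dpf1 and Pbrm1 rose (26.0% of all genes rose) and Brd7 and Phf10 fell (25.7% fell). All cisplatin libraries lay above all DMSO libraries for Dpf1 alone (14.2% of all genes) and below them for Brd7 alone (9.78%). Without DMSO replicate 1 Phf10 joined Brd7 (2 of 9, against 12.6% of all genes). The median was -0.05 against -0.0041 for all genes. Both comparisons share the DMSO libraries, and each pair of comparisons below shares libraries with them.

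With the combination against cisplatin 3 of 9 passed, where 68.1% of all genes did: Arid1a and Arid1b rose (35.4% of all genes rose) and Phf10 fell (32.7% fell). The median was -0.06 against 0.04 for all genes. The groups did not overlap for Arid1a, which was higher (24.7% of all genes), and for Phf10, which was lower (25.5%). Against AU-15330 the combination raised Dpf2 and Phf10, 2 of 9 where 41.7% of all genes passed (22.2% higher and 19.5% lower). The median was 0.02 against 0.0062. The groups did not overlap for 1 of the 9, Phf10 (29.6% of all genes, in either direction). Whether cisplatin was present altered the AU-15330 effect for 5 of 9 genes, where 33.7% of all genes passed this test (17.9% positive and 15.8% negative). It was more positive or less negative with cisplatin for Dpf2 (0.21, adjusted p = 0.0477), Brd7 and Phf10, and less positive for Arid1b. For Pbrm1 it was 0.22 without and -0.16 with cisplatin, neither of which passed on its own. The median was -0.0039 against 0.0065 for all genes. Without DMSO replicate 1 the Dpf2 value was 0.22 (adjusted p = 0.0225). The Dpf2 call was lost under 4 of the alternative fits, with adjusted p from 0.0548 (DESeq2) to 0.192 (library totals).

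Per kilobase of annotated exon, Phf10 had the highest mean level of the 10 genes in DMSO (31.9 CPM per kb ± 4.28, SD, n = 6) and with cisplatin (22.2 ± 0.813). With AU-15330 and the combination Arid1a was highest, at 37.6 ± 3.42 and 33.1 ± 4.31 CPM per kb, and Phf10 was seventh, at 9.47 ± 0.820 and 12.4 ± 1.19. The first place was clear of the second in every group. In the middle of the order neighbours overlapped: in DMSO, Brd7, Arid1a, Dpf2, Arid2, Pbrm1 and Arid1b went from 20.3 down to 10.8 CPM per kb. Brd9 (6.25 to 7.66 CPM per kb over the 4 groups), Dpf1 (0.480 to 0.787) and Dpf3 (0.0210 to 0.107) had the lowest levels in every group, in this order.

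Part of the spread between replicates followed transcript length. Arid1a, Arid1b, Arid2 and Pbrm1 have 8846 to 12600 bases of annotated exon. Among the 2214 tested genes with at least 8000, the median deviation of a library from its group mean, on the log2 scale, ran from -0.20 to 0.20 in DMSO, from -0.19 to 0.14 with cisplatin, from -0.07 to 0.04 with AU-15330 and from -0.16 to 0.08 with the combination. Arid1a and Arid1b each deviated to the same side as these long genes in 22 of 24 libraries, Arid2 in 23 and Pbrm1 in 16. Among the genes with fewer exon bases Dpf1 and Dpf2 did so in 11 each, Phf10 in 8, Brd7 in 7 and Brd9 in 4. The median difference of the long genes between AU-15330 and DMSO was 0.05. In a fit with the length trend of each library removed, the AU-15330 effect on Arid1a was 0.97 and that on Phf10 -1.74. Arid2 (0.18, adjusted p = 0.0387) and Pbrm1 (0.20, adjusted p = 0.0289) then passed the test for an increase with AU-15330, and Arid1a for a decrease with cisplatin (-0.20, adjusted p = 0.0193). This fit was chosen after the data were seen.

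**Figure D4:**
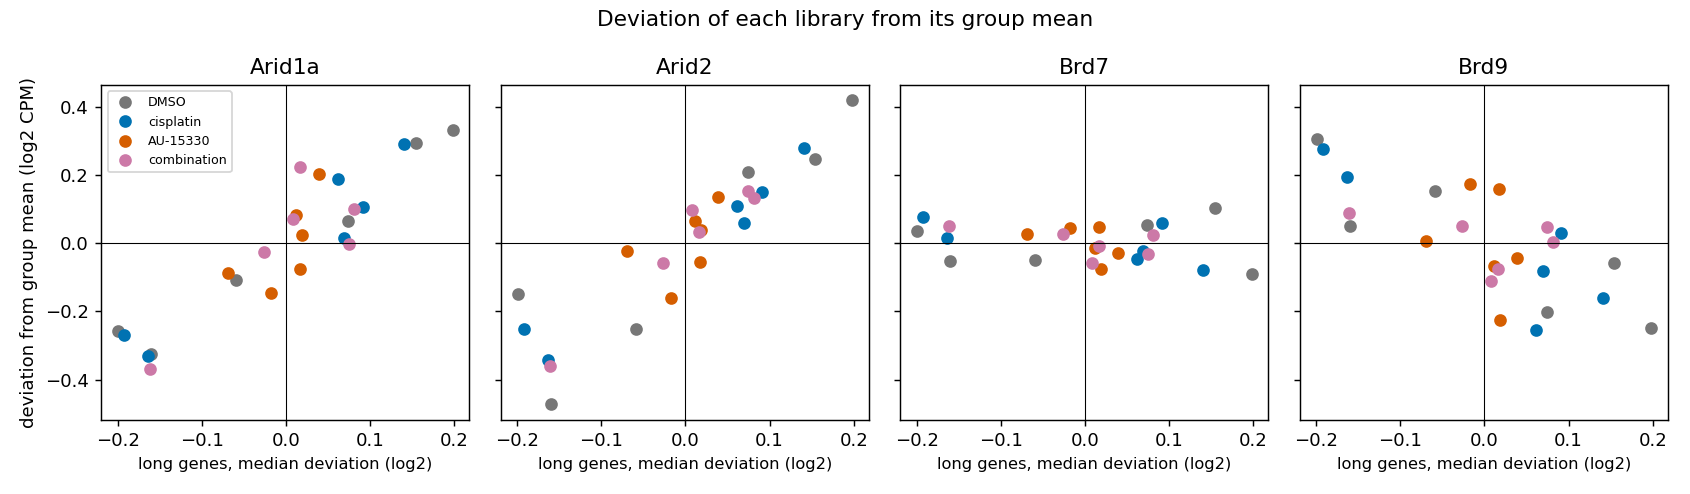
Deviation of each of the 24 libraries from its group mean in log2 CPM for Arid1a, Arid2, Brd7 and Brd9 (vertical axis) against the median deviation of the 2214 long genes in the same library (horizontal axis, log2); colours mark the treatments. Arid1a and Arid2 deviated to the same side as the long genes in 22 and 23 of 24 libraries, Brd9 in 4.

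Of 19 genes for the ATPases, core and remaining subunits, 17 were tested. With AU-15330 against DMSO 6 were higher and 6 lower (73.4% of all genes passed), and with the combination against cisplatin also 6 and 6 (68.1%). With cisplatin against DMSO 3 were higher and 3 lower (51.7%), and with the combination against AU-15330 2 and 3 (41.7%). The effect of AU-15330 was more positive in the presence of cisplatin for 1 and more negative for 3 (33.7%). Smarca4, which encodes an ATPase that AU-15330 degrades, rose by 0.66 with AU-15330 (SE 0.0554, adjusted p = 4.6e-11) and by 0.38 with cisplatin (adjusted p = 2.3e-06). Smarca2, which encodes the other, differed by -0.63 with AU-15330 (SE 0.0842, adjusted p = 2.3e-07) and by -0.99 between the combination and cisplatin (adjusted p = 8.6e-11). Thus the ATPase mRNAs moved in opposite directions with AU-15330, as did Arid1a and Phf10.

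The largest called increases and decreases in this list were Smarcd3 (0.58) and Smarcb1 (-0.58) with cisplatin, and Smarcd3 (1.30) and Actb (-0.69) with AU-15330. The Smarcd3 exons lie partly opposite Chpf2 and Mir671, and the larger overlap covers 48.2% of their bases. Of the Bicral exon bases 11.3% lie opposite Gm26904. Without the strand setting of the counting, the values of Smarcd3 and Bicral are uncertain. For the combination the largest were Bicral (0.91) and Bicra (-1.07) against cisplatin, and Actb (0.30) and Bicral (-0.68) against AU-15330. For the effect of AU-15330 with minus without cisplatin they were Smarcb1 (0.50) and Smarcd3 (-1.06). Smarcd3 encodes a core subunit known from heart and muscle, Smarcb1 a core subunit that contacts the nucleosome, and Actb the beta-actin that complexes carry as a subunit.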

How the data were processed

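RNA was extracted and poly(A)-enriched, and strand-specific libraries were sequenced. The deposited values are whole-number read counts per gene symbol, which the authors made without normalization; the submitters' processing notes name STAR 2.7.1a, DESeq2 1.36.0 and the build mm10. The counting tool, its strand setting and its annotation are not given in the sources used here. The 48 columns are 2 lanes for each of 24 libraries, and lanes were summed (chi-square per degree of freedom between lanes 1.36 to 1.46, between replicates at least 2.26).

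Counts were filtered (filterByExpr) and TMM-scaled, and 4 group means were fitted over all 24 libraries (20 residual degrees of freedom) with the quasi-likelihood test of edgeR 4.0.16 in R 4.3.3. P-values were adjusted by Benjamini-Hochberg over 12941 genes and called under 0.05. The interaction is the effect of AU-15330 with cisplatin minus that without. Alternatives were DESeq2 1.42.0, its size factors, library totals, no filter, a replicate block and no replicate 1. Exon length, sets of replicate numbers and DMSO replicate 1 were added after the data were seen. The procedure was tested on simulated data. Exon lengths came from a GENCODE annotation of the same build.

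The subunit genes and the lists were chosen with earlier results of these data known. All 10 subunit genes are named. Of the other subunits Smarca4, Smarca2, Bicra, Bicral and the largest called increase and decrease in each comparison are named, and for Arid1a, Pbrm1 and Brd9 the 3 genes nearest in centred log2 CPM, of which 2 are not reported here. Counting error limits Dpf1 and Dpf3 most.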

Additional observations from a re-analysis of the deposited data

Results flagged for a closer look

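Among the DMSO libraries, replicate 1 lay apart from the other 5 for 2 genes. For Phf10 its gap to the nearest library was 0.900 of the group's whole range, and for Dpf2 0.686, where 0.625 is the critical value for 6 samples. Of 36 groups examined (9 genes in 4 treatments) 2 were marked, and chance marks about 1 in 20, or 1.8 of 36. Without DMSO replicate 1 the Phf10 difference was -1.82 with AU-15330 and -0.58 with cisplatin.

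The effect of AU-15330 differed between the presence and absence of cisplatin, by the interaction term in edgeR, for 5 of 9 genes, where 33.7% of all tested genes passed. The difference on the log2 scale, with minus without cisplatin, was 0.91 for Phf10, 0.21 for Dpf2, 0.21 for Brd7, -0.40 for Arid1b and -0.38 for Pbrm1. The call was lost under 4 of 9 alternatives for Dpf2, under 3 for Brd7 and under 1 for Pbrm1.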

How the results depend on the processing

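Of 405 values of the 9 tested subunit genes under 9 alternatives (3 of them added after the data were seen), 357 kept their direction and their side of the threshold, 16 lost a call, 14 gained one and 18 changed sign, none of these called in the original fit. Calls for Arid1a and Phf10 were lost under none of them. With library totals the sign turned for Dpf2 (0.028), Arid2 (0.067) and Brd9 (0.0044) in cisplatin against DMSO, and for Dpf2 (0.017) and Brd7 (0.0092) in the combination against cisplatin. Under DESeq2 and its size factors Arid2 turned in cisplatin against DMSO (0.0088 and 0.0087) and in the combination against cisplatin (-0.0059 and -0.0059), and in the latter also with no filter (-0.0054). Brd7 and Brd9 turned in the combination against AU-15330 with no filter (-0.016 and -0.017). Leaving out replicate 1 of all groups, or of DMSO alone, gave -0.020 and 0.020 for Brd7 and -0.035 and 0.019 for Brd9 there, 0.017 and 0.025 for the Arid1a interaction, and -0.085 and 0.011 for Brd9 with cisplatin. The Arid1a interaction was 0.074 with the length trend removed. The cause was not tested.

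The number of subunit genes called in the combination against AU-15330 went from 2 to 1 with no filter (25.8% of all genes passed) and without replicate 1 (43.4%). For the interaction it went from 5 to 3 with library totals (33.2% of all genes passed) and with no filter (4079 of 20428 genes). Library totals moved the median of all genes by 0.13 in AU-15330 against DMSO and ended the calls there for Dpf2 (adjusted p = 0.0561) and Brd9 (adjusted p = 0.143), while Arid2 (adjusted p = 0.0163) and Pbrm1 (adjusted p = 0.00296) gained one. They also raised the share of calls that were higher from 50.2% to 61.1% with cisplatin and from 49.3% to 58.6% with AU-15330, and lowered it from 53.0% to 41.7% for the interaction.

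The labels do not say that a replicate number marks a shared culture or day, so the numbers were not taken to pair the libraries. Same-numbered pairs correlated more on average than others (mean 0.14 against -0.03), and 23 of 36 lay above 0.1. Of the 24 libraries 10 correlated best with their own number. Whether same-numbered libraries share a culture or day cannot be told from these values. A replicate block moved the genes called for the interaction from 4361 to 5303. With a replicate block 5, 6, 4, 2 and 5 subunit genes were called in cisplatin against DMSO, AU-15330 against DMSO, the combination against cisplatin and against AU-15330, and the interaction, where 56.8%, 77.0%, 71.8%, 47.8% and 41.0% of all genes were. The added call was Brd9 (adjusted p = 0.0294), and the block changed no other call of a subunit gene. With sets of numbers (1, 2 and 3, 4 to 6) as a term, Pbrm1 with AU-15330 (adjusted p = 0.0490) and Brd9 in the combination against cisplatin (adjusted p = 0.0222) were added.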

Other observations

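Among the tested genes whose centred log2 CPM over the 24 libraries lay nearest to Arid1a by root-mean-square difference were Lpgat1 (0.128) and Abi2 (0.132), where Arid1a itself varied with an SD of 0.56. For Pbrm1, which itself varied with an SD of only 0.21, they included Met (0.0977) and Zhx1 (0.114). For Brd9, with an SD of 0.20, the 3 nearest were Pitpna (0.0999), Dbnl (0.112) and Eed (0.113). These distances are therefore larger relative to the gene's own variation than those for Arid1a.

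The read ratio of Brd9 to Brd7, the bromodomain genes of ncBAF and PBAF, had medians of 0.486 in DMSO, 0.518 with cisplatin, 0.480 with AU-15330 and 0.488 with the combination, and all group ranges overlapped.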
